A study of Mus musculus with 44 samples.

Results

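Paneth cells were picked out of single-cell transcriptomes of mouse small-intestinal organoids by their antimicrobial genes. Wells were selected on the summed UMI share of 4 genes. A well with 1000 or more unique molecular identifiers (UMIs, each one captured mRNA molecule) was called a Paneth well when Lyz1, Defa24, Mptx2 and Ang4 together held 0.3% or more of its UMIs and at least as large a share as the goblet cell genes Muc2, Zg16, Fcgbp, Tff3 and Spink4. This picked 84 of 8231 wells, 32 of 1673 from organoids given RANKL with CSRM617 and 52 of 6558 from organoids given RANKL alone. A goblet well, the class used for comparison, held 0.3% or more of its UMIs in the 5 goblet genes and a larger share there than in the 4 Paneth genes, which gave 71 and 333 wells. The remaining 1570 and 6173 wells belonged to neither class.

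Paneth cells sit at the base of small-intestinal crypts, between the Lgr5-positive stem cells, and release granules of lysozyme, alpha-defensins and other antimicrobial proteins into the lumen. They arise from the secretory lineage they share with goblet cells and also make niche signals such as WNT3 and EGF for the stem cells beside them. RANKL is a cytokine of the TNF family that acts through its receptor RANK and drives epithelial cells towards microfold (M) cells, and CSRM617 inhibits the transcription factor ONECUT2.

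The organoids came from the small intestine of 1 female Lgr5GFPDTR/+ mouse, an animal with a GFP and diphtheria toxin receptor cassette at 1 Lgr5 allele, so every group is 1 line. All were grown in ENR medium, kept for 3 days with 3 µM CHIR99021 and 1.5 mM valproic acid and then for 1 day in ENR alone, before RANKL at 100 ng/mL with 40 µM CSRM617 (days 0 to 6, 2 plates per day) or RANKL at 100 ng/mL alone (days 0 to 9, 3 plates per day). The medium was refreshed every 3 days. The labels do not say whether the day 0 wells had received an agent. Viable single cells were sorted by scatter into 384-well plates and read with a modified CEL-Seq2, a 3′ UMI method. Plates were the replicates. No label says that they were separate cultures, so each p-value weighs a difference against plate-to-plate spread that may be technical. Of 14 plates with CSRM617, 9 held a Paneth well and 7 held 3 or more. Of 30 plates with RANKL alone, 21 held a Paneth well and 10 held 3 or more. No plate held more than 6. Plates kept 24 to 223 wells and 47976 to 835772 UMIs with CSRM617, and 26 to 282 wells and 155940 to 1640523 UMIs with RANKL alone. The treatments are in separate tables and on separate plates, so treatment and plate batch cannot be told apart.

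The 4 genes of the definition encode secreted antimicrobial proteins. Lyz1 (chromosome 10, 117287797 to 117292868, minus strand, GRCm38) encodes lysozyme, which cleaves bacterial cell walls. Defa24 (chromosome 8, 21734494 to 21735471, plus strand) encodes an alpha-defensin, a membrane-disrupting peptide. Mptx2 (chromosome 1, 173274382 to 173277777, minus strand) encodes a mucosal pentraxin, and Ang4 (chromosome 14, 51763878 to 51773590, minus strand) a secreted ribonuclease with bactericidal activity. Close copies make some of these counts uncertain. Of the 31-base words in the annotated transcripts of Defa24, 57.1% also occurred in 30 other genes. The share was 34.2% for Lyz1, all with Lyz2, 25.1% for Mptx2, with Mptx1, and 13.8% for Ang4, with 4 genes.

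Promoters were read for the 4 genes of the definition and for Itln1, Mmp7 and Reg4, the 3 genes outside it with the largest log2 fold changes in Paneth wells with CSRM617, from RefSeq on GRCm38.p6, 250 bases before to 50 after the start. Promoters of 6 of these 7 genes were found, with none for Defa24. Shown 5′ to 3′ on the gene's strand are Lyz1, the most detected gene of the definition (chr10:117292819-117293118, minus), Itln1 (chr1:171535245-171535544, minus), Mmp7, for which the first of 2 listed starts was taken (chr9:7691840-7692139, plus), and Reg4 (chr3:98221906-98222205, plus).
Lyz1: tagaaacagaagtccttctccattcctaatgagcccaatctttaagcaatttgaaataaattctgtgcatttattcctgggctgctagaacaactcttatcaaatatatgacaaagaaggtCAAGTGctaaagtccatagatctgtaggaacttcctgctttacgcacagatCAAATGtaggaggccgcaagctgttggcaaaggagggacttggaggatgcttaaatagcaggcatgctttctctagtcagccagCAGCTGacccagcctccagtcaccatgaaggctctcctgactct
Itln1: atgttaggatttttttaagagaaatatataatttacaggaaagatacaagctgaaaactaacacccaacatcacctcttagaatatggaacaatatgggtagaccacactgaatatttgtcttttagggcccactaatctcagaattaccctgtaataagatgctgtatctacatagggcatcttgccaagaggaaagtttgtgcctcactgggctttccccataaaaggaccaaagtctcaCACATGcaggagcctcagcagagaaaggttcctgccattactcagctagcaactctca
Mmp7: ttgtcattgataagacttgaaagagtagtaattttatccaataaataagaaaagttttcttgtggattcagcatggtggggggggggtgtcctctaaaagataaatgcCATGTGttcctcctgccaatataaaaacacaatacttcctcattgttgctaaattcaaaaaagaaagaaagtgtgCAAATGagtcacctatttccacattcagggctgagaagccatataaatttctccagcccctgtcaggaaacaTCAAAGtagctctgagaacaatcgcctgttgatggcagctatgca
Reg4: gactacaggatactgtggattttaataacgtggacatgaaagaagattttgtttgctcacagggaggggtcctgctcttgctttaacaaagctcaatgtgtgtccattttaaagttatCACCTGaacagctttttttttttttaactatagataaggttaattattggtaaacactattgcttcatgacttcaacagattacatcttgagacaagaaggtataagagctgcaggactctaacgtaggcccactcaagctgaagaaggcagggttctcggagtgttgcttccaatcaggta
Capitals mark CANNTG, the core of the E-box read by basic helix-loop-helix factors such as the secretory regulator ATOH1, and CTTTGA on either strand, a core of the TCF motif through which Wnt signals act. CANNTG occurred 3 times in the Lyz1 promoter, 2 times in those of Mmp7 and Ang4, and 1 time in those of Itln1, Reg4 and Mptx2. It occurred in 72.3% of all 32851 promoters of this length. CTTTGA had 1 match, on the opposite strand of the Mmp7 promoter from base +5, and occurred in 16% of all promoters. No marked stretches overlapped, and these matches describe letters only.

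The summed share of the 4 genes, which chose the wells and is given without a test, was at its lowest 0.462%, at its median 3.29% and at its highest 23.04% in Paneth wells with CSRM617. With RANKL alone it was 0.328%, 1.26% and 15.7%. Over both treatments the 4 genes gave 4 to 673 UMIs per Paneth well, with a median of 36.5, and 4 wells had under 10. A typical Paneth well thus rested on few molecules of the 4 genes. Just inside the threshold lay wells at 0.462% with CSRM617 and 0.328% with RANKL alone, and just outside it wells at 0.165% and 0.299%. With RANKL alone, 5 wells lay between 0.3% and 0.4% and 4 between 0.2% and 0.3%. A further 19 wells with CSRM617 and 46 with RANKL alone passed 0.3% but had the larger share in goblet genes.

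**Figure D1:**
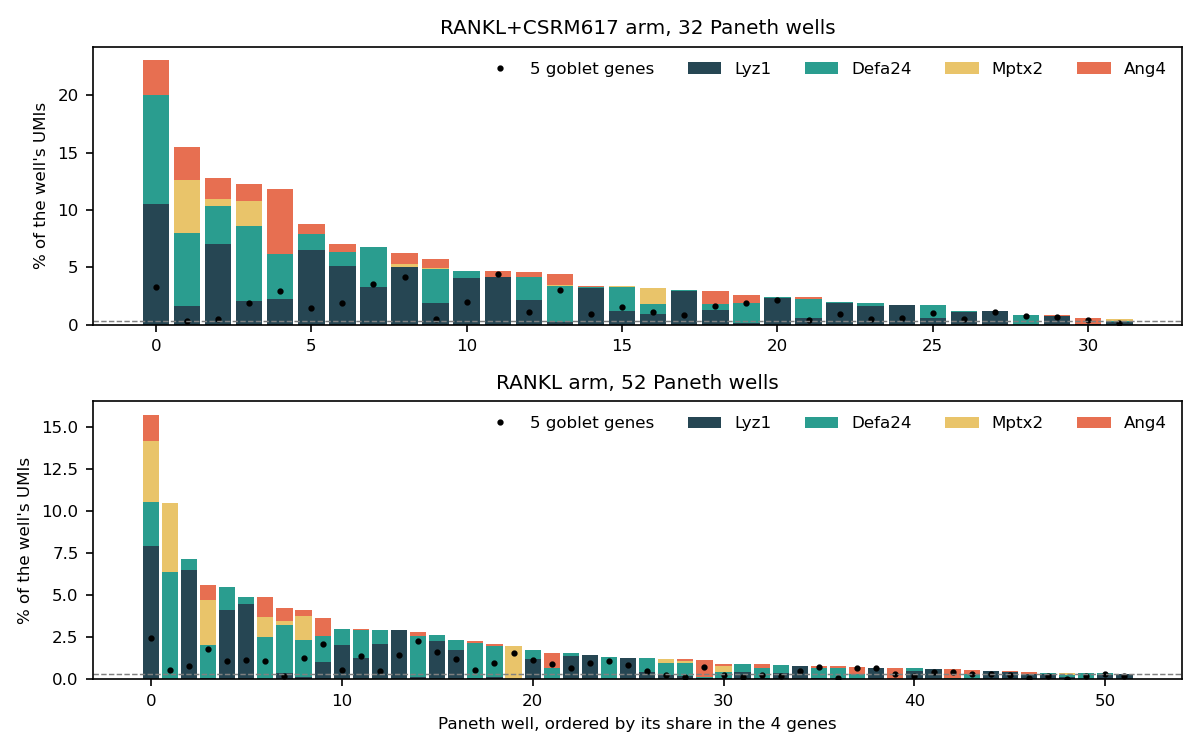
Share of each Paneth well's UMIs, in percent, held by Lyz1, Defa24, Mptx2 and Ang4 (stacked colours), with RANKL+CSRM617 above and RANKL alone below. Each bar is 1 of the 84 wells, black dots give the same well's share in the 5 goblet genes, and the dashed line marks 0.3%. Lyz1 or Defa24 fills most bars, and black dots lie above the dashed line in 65 wells.

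Paneth wells did not carry the 4 genes as 1 block. Lyz1 had a UMI in 72 of the 84 wells, Defa24 in 67, Ang4 in 43 and Mptx2 in 24. Lyz1 gave 3153 UMIs, Defa24 2290, Ang4 780 and Mptx2 580. Lyz1 was the leading gene in 43 wells, Defa24 in 31, Ang4 in 7 and Mptx2 in 3. All 4 genes were present in 13 wells, 3 in 27, 2 in 29 and only 1 in 15. The 2 wells with the largest shares differed in make-up. The well with CSRM617, from day 5 replicate 1, had 2704 UMIs, of which 284 were Lyz1, 256 Defa24, 81 Ang4 and 2 Mptx2. The well with RANKL alone, from day 2 replicate 3, had 4278 UMIs, of which 339 were Lyz1, 111 Defa24, 68 Ang4 and 155 Mptx2. Mptx2 was thus high in the second and near absent from the first. Both also held genes the definition did not use, with 178 and 180 UMIs of Itln1 and 40 and 47 of Mmp7.

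Across the Paneth wells, Defa24, Ang4 and Mptx2 varied together more than any of them did with Lyz1 in organoids with RANKL alone. Spearman's rho over those 52 wells was 0.407 for Defa24 with Mptx2, 0.383 for Defa24 with Ang4 and 0.354 for Mptx2 with Ang4. It was -0.459 for Lyz1 with Ang4, -0.268 for Lyz1 with Mptx2 and -0.0730 for Lyz1 with Defa24. With CSRM617, over 32 wells, it was 0.539 for Defa24 with Ang4, 0.433 for Defa24 with Mptx2 and 0.362 for Lyz1 with Ang4, so the negative value of Lyz1 with Ang4 was not seen there. These are descriptions of shares of 1 total, in wells that share plates and were selected on the sum of these shares.

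Paneth wells held fewer UMIs than the others on their plates. Their median was 1891 UMIs with CSRM617, against 2167 in goblet wells and 2917 in wells of neither class, and 2241 with RANKL alone, against 3246 and 4791. The Paneth median was the lower in 8 of 9 plates with CSRM617 and in 20 of 21 with RANKL alone. A median of 788 genes was detected with CSRM617, against 1076 in goblet wells and 1377.5 in wells of neither class, and of 1226.5 with RANKL alone, against 1688 and 2267. Fewer mRNA molecules per cell and poorer capture cannot be told apart. None of the Paneth wells exceeded 3 times its plate's median UMIs. No doublet caller was run.

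The Paneth label was set beside markers that the definition did not use. Their list was drawn up with earlier results of these data known, so it describes the wells and is no independent check. The summed share of 19 further Paneth genes measured with CSRM617 had a median of 3.76% in Paneth wells, 0.510% in goblet wells and 0.294% in wells of neither class. With RANKL alone and 23 genes measured it was 1.33%, 0.560% and 0.260%. The other alpha-defensins are near copies of Defa24, so their counts are not independent of it and check nothing. With RANKL alone, 14 of the 40 listed were measured, sparsely, and 21 of 52 Paneth wells had none of their UMIs, against 308 of 333 goblet wells and 6133 of 6173 wells of neither class. Lyz2, the lysozyme of macrophages, had a UMI in 1 of 52 Paneth wells, 1 of 333 goblet wells and 3 of 6173 wells of neither class.

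Markers of other cell types were mixed. Goblet genes were common in Paneth wells. The 5 of the definition together passed 0.3% in 30 of 32 Paneth wells with CSRM617 and 35 of 52 with RANKL alone, and Tff3, a secreted trefoil peptide, had a UMI in 80 of the 84, Fcgbp in 64, Spink4 in 59, the mucin Muc2 in 31 and Zg16 in 8. One Paneth well had no UMI of the 5. Goblet genes outside the definition had a median summed share of 0.399% in Paneth wells with CSRM617, against 0.640% in goblet wells and 0.0712% in wells of neither class, and of 0.354% with RANKL alone, against 0.367% and 0.0780%. Whether both lineages share these genes or the wells held more than 1 cell was not tested. Enteroendocrine genes were at 0 in 20 of 32 Paneth wells with CSRM617, against 52 of 71 goblet wells and 1485 of 1570 wells of neither class, so more Paneth wells than wells of neither class held some. Their mean summed share was 0.0385% in Paneth wells, 0.0843% in goblet wells and 0.0147% in wells of neither class. With RANKL alone they were at 0 in 45 of 52 Paneth wells, 259 of 333 goblet wells and 5627 of 6173 wells of neither class, at mean shares of 0.00776%, 0.0550% and 0.0110%. The highest share in a Paneth well was 0.327% with CSRM617 and 0.118% with RANKL alone, and the part of enteroendocrine genes in the results was not tested. Tuft genes were at 0 in 31 of 32 Paneth wells, 68 of 71 goblet wells and 1499 of 1570 wells of neither class with CSRM617, and in 48 of 52, 319 of 333 and 5675 of 6173 with RANKL alone. With RANKL alone, Chgb (enteroendocrine granule), Dclk1 (tuft) and Fabp1 (enterocyte) had no UMI in any of the 52 Paneth wells. The exact 95% binomial upper bound for each is 6.85% of wells. Other genes of these lists were detected there. The enterocyte list was at 0 in only 12 of 52 Paneth wells, 52 of 333 goblet wells and 547 of 6173 wells of neither class. The absence of Chgb, Dclk1 and Fabp1 thus does not stand for their lists. It is not set beside their rates in other classes, so it does not set Paneth wells apart. Intervals here cover counting error only.

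Genes with the pattern most like the summed share were ranked by Spearman's rho over all 6558 wells with RANKL alone, which share plates and depth. They were Spink4 at 0.249, Clps at 0.236, Tff3 at 0.202, Itln1 at 0.199, Reg4 at 0.198, Defa30 at 0.193, Defa17 at 0.191, Rep15 at 0.169, and Mmp7 and Muc2 at 0.163. All are weak in counts this sparse. Goblet genes and Paneth genes both stood in this order.

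Free RNA can place UMIs in wells that do not express a gene, so detection was set beside 52 wells of neither class with RANKL alone that held 1% or more of their UMIs in 4 enterocyte lipid genes, whose median depth was 6442.5 UMIs. Lyz1, Defa24, Ang4, Mptx2, Kit, Wnt3, Atoh1 and Gfi1 had a UMI in none of these, Reg4 in 3, Itln1 in 8 and Mmp7 in 10. Wells of neither class were chosen by a low share in Lyz1, Defa24, Ang4 and Mptx2. The absence of those 4 genes thus follows in part from the choice of wells. In Paneth wells, at a median of 2241 UMIs, Itln1 had a UMI in 80.8%, against 43.8% of goblet wells and 13.9% of wells of neither class. Thinned to 1000 UMIs per well, these were 73.7%, 33.3% and 4.11%. Itln1 encodes intelectin, a lectin that binds microbial glycans. Mmp7, the protease that activates mouse alpha-defensins, had a UMI in 86.5% of Paneth wells, 80.2% of goblet wells and 30.4% of wells of neither class, or 81.6%, 64.9% and 10.8% when thinned. Mmp7 thus set both secretory classes apart from the rest more than it set them apart from each other.

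Regulators of the secretory lineage were detected at low rates. Gfi1, which acts below ATOH1 in this lineage, had a UMI in 20 of 52 Paneth wells with RANKL alone (38.5%), against 17.4% of goblet wells and 0.454% of wells of neither class, or 19.6%, 6.41% and 0.148% when thinned. Atoh1 itself was at 23.1%, 23.7% and 1.60%, about equal in the 2 secretory classes. Spdef was at 15.4%, 11.1% and 0.324%. Of the niche signals, Wnt3 was at 38.5% of Paneth wells, 24.9% of goblet wells and 4.81% of wells of neither class. The Notch ligand gene Dll4 was at 11.5%, 19.5% and 2.66%, or 6.09%, 6.69% and 0.709% when thinned, and Dll1 at 30.8%, 41.4% and 22.2%, or 15.8%, 20.7% and 5.83%. Thinned, Atoh1 was at 9.81%, 9.35% and 0.416%, Spdef at 6.09%, 3.36% and 0.0988%, and Wnt3 at 17.7%, 10.3% and 1.40%. Egf had no UMI in Paneth wells, with 1 goblet well and 59 wells of neither class, and Tgfa had a UMI in 2, 35 and 927 wells. With CSRM617, Wnt3 was at 37.5% of Paneth wells against 2.10% of wells of neither class, and Gfi1 at 12.5% against 0.127%.

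Paneth wells were found on all days except day 4. With CSRM617 they made up 1.68% and 2.41% of kept wells on day 0, 2.69% and 1.56% on day 1, 0% and 3.05% on day 2, 1.09% and 0% on day 3, 0% on both plates of day 4, 4.90% and 0% on day 5, and 5.66% and 1.82% on day 6. With RANKL alone the 3 plates held 0.437%, 0% and 0% on day 0, then 2.38%, 2.50% and 1.63% on day 1, and 1.32%, 1.29% and 0.840% on day 2. They held 0.369%, 0% and 0.360% on day 3, 0% on all plates of day 4, and 1.36%, 1.40% and 1.55% on day 5. Later values were 0.749%, 1.25% and 0.376% on day 6, 0.810%, 0.727% and 0.379% on day 7, 1.17%, 0.355% and 0% on day 8, and 0%, 0.448% and 0% on day 9. With RANKL alone the plates of days 1 and 5 were thus the highest and, like those of day 2, did not overlap those of day 0. Day 0 replicate 2 kept only 26 wells, however, and the exact 95% binomial upper bound of its 0% is 13.2%. Day 4 kept few wells, 0 of 67 with CSRM617, for which the exact 95% binomial upper bound is 5.36%, and 0 of 197 with RANKL alone, for which it is 1.86%. By the limit of 3 counts, those shares could reach 4.48% and 1.52%. A lower share on day 4 than on days 3 or 9 was therefore not detectable at this depth. Each share rests on 0 to 6 wells.

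**Figure D2:**
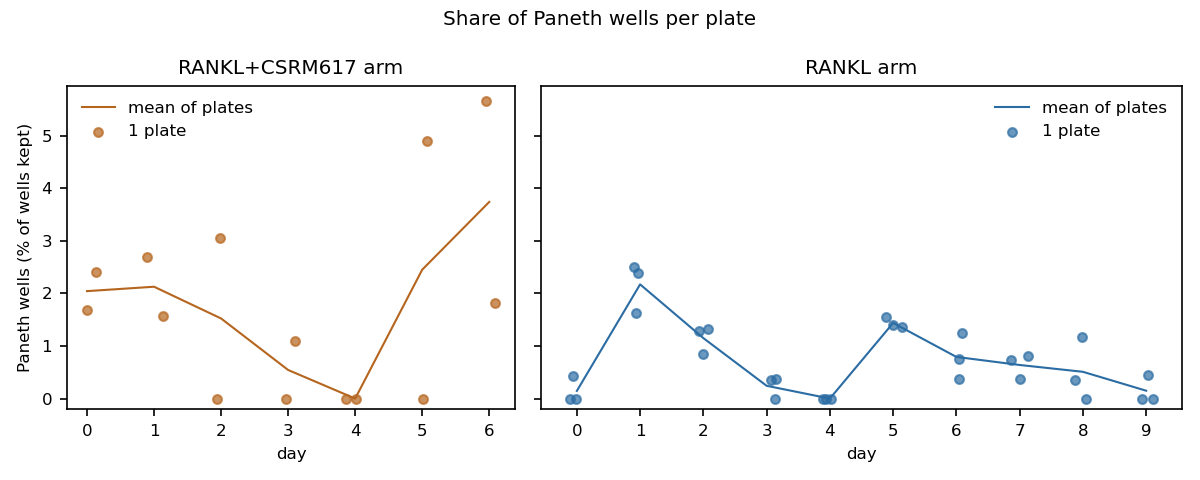
Paneth wells as a percentage of the kept wells of a plate (vertical axis) by day (horizontal axis), RANKL+CSRM617 on the left and RANKL alone on the right. Points are plates and the line joins day means. With RANKL alone the day means are 2.17% on day 1 and 1.44% on day 5, with 0% on day 4, and with CSRM617 the 2 plates of day 5 lie at 4.90% and 0%.

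None of 7 comparisons of the Paneth share passed an adjusted p of 0.05 in exact two-sided permutation tests over plates with Benjamini-Hochberg adjustment. Between spans of days, plates were permuted freely over days, so plates of 1 day counted as independent. Shares went with the day, with RANKL means of 2.17%, 1.15% and 0.243% on days 1, 2 and 3. The p-values between spans may therefore be too small. With RANKL alone, days 1 to 3 averaged 1.19% ± 0.884 (SD, 9 plates) and day 0 averaged 0.146% ± 0.252 (SD, 3 plates), a difference of 1.04 percentage points (exact permutation p = 0.0955, adjusted 0.183). Days 4 to 9 averaged 0.588% ± 0.558 (SD, 18 plates), a difference of 0.442 points from day 0 (exact permutation p = 0.241, adjusted 0.337) and of -0.600 points from days 1 to 3 (exact permutation p = 0.0396, adjusted 0.183). Within CSRM617, days 1 to 3 averaged 1.40% ± 1.298 (SD, 6 plates), against 2.04% ± 0.519 on day 0 (SD, 2 plates; exact permutation p = 0.571, adjusted 0.589), a difference of -0.645 points that turned to 0.0689 when Lyz1 was left out of the definition. Days 4 to 6 averaged 2.06% ± 2.60 (SD, 6 plates), against the same 1.40% ± 1.298 on days 1 to 3 (exact permutation p = 0.589, adjusted 0.589), a difference of 0.666 points that turned to -0.0536 without day 6 replicate 1.

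Paneth wells made up a larger mean share with CSRM617 than with RANKL alone, without passing the test. On day 0 the share was 2.04% ± 0.519 with CSRM617 and 0.146% ± 0.252 with RANKL alone, and the plates did not overlap (exact permutation p = 0.1, the smallest that 2 against 3 plates allow, adjusted 0.183). Over days 1 to 6 the Paneth share was 1.73% ± 1.99 with CSRM617 (SD, 12 plates) and 0.966% ± 0.792 with RANKL alone (SD, 18 plates), a difference of 0.765 points (exact permutation p = 0.104 over all 1000000 divisions within days, adjusted 0.183). Without the CSRM617 day 5 replicate 1 plate the difference was 0.356 points, and without day 5 replicate 2 it was 1.17.

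Which genes beyond the definition set Paneth wells apart was asked within plates. UMIs were summed per plate over Paneth wells and over all other kept wells of the same plate, goblet wells included, on the 10 RANKL plates and the 7 CSRM617 plates with 3 or more Paneth wells. Paneth sums held 3340 to 15732 UMIs per plate with CSRM617 and 6641 to 21432 with RANKL alone. Values are UMIs per 1000000 UMIs of the sum (CPM), tested with edgeR's quasi-likelihood test with plate as a block and Benjamini-Hochberg adjustment. The median log2 fold change of all tested genes was -0.27 with CSRM617 and -0.24 with RANKL alone, and changes are read relative to it. The 9 genes of the definition and their near copies are given without a test.

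With RANKL alone, 69 of 5735 tested genes were higher in Paneth wells (1.2%) and 121 lower (2.11%), so 3.31% passed an adjusted p of 0.05 in either direction. Scaling each plate sum on its own by TMM turned the split to 38 higher and 900 lower, and DESeq2 size factors gave 77 and 107. With CSRM617, 48 of 1331 were higher (3.61%) and 62 lower (4.66%), 8.26% in all, against 43 and 147 with DESeq2 size factors and 43 and 102 with TMM per plate sum.

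The genes of the definition were high by choice. On the 7 CSRM617 plates, Lyz1 lay at 11181, 16624 and 52315 CPM (lowest, median, highest) in Paneth wells, against 10.8, 59.5 and 137 in the other wells. Defa24 lay at 2116, 5339 and 57440 CPM against 0, 8.09 and 136. On the 10 RANKL plates, Lyz1 lay at 1674, 5773 and 24348 CPM against 16.3, 39.0 and 68.3, Defa24 at 943, 5193 and 19420 against 0.698, 15.5 and 81.7, and Ang4 at 0, 806 and 4569 against 4.28, 13.1 and 32.6.

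Antimicrobial and granule genes outside the definition led the rises in both treatments. Itln1 lay at 1836, 23498 and 68161 CPM in Paneth wells with CSRM617, against 0, 193 and 377 in the other wells, a log2 fold change of 6.42 ± 0.42 (SE, edgeR adjusted p = 5.07e-50). With RANKL alone it lay at 1212, 7614 and 19252 CPM, against 59.7, 187 and 275, a log2 fold change of 5.60 ± 0.21 (edgeR adjusted p = 5.65e-152). The Itln1 ranges did not overlap in either treatment. Mmp7 lay at 2670, 6348 and 16656 CPM with CSRM617, against 71.1, 185 and 561 (log2 fold change 5.17 ± 0.34, edgeR adjusted p = 4.3e-50), and at 943, 3694 and 7905 CPM with RANKL alone, against 123, 231 and 361 (4.18 ± 0.21, edgeR adjusted p = 2.79e-86). It was higher in Paneth wells on every plate of both treatments, with no overlap. Reg4, a secreted C-type lectin, lay at 1001, 2782 and 3617 CPM with CSRM617, against 0, 15.5 and 50.5 (7.12 ± 0.39, edgeR adjusted p = 1.65e-70), and at 0, 743 and 2750 CPM with RANKL alone, against 0.927, 30.9 and 120 (4.68 ± 0.30, edgeR adjusted p = 1.36e-51). Reg4 was higher on 7 of 7 and 9 of 10 plates.

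With RANKL alone, Clps, which encodes the lipase cofactor colipase, lay at 0, 350 and 1025 CPM in Paneth wells, against 2.09, 14.5 and 56.8 (log2 fold change 4.52 ± 0.33, edgeR adjusted p = 1.75e-39). Kit, a receptor tyrosine kinase gene, lay at 0, 285 and 571 CPM, against 12.2, 40.3 and 84.6 (3.08 ± 0.36, edgeR adjusted p = 7.55e-15). Cd24a, a surface glycoprotein gene used to sort Paneth cells, rose less, with 1094, 1962 and 4206 CPM against 624, 915 and 1282 (1.16 ± 0.20, edgeR adjusted p = 1.2e-06). With CSRM617, Cd24a lay at 1601, 3171 and 4534 CPM, against 416, 803 and 1639 (1.92 ± 0.31, edgeR adjusted p = 2.84e-08). Of the 12 tested Paneth genes outside the definition with RANKL alone, 7 rose and 1, Reg3g, fell, with a median log2 fold change of 1.42. With CSRM617, 4 of 6 rose and 1 fell, with a median of 3.55. The list was drawn up from earlier results and textbook markers, so its direction is a description.

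**Figure D3:**
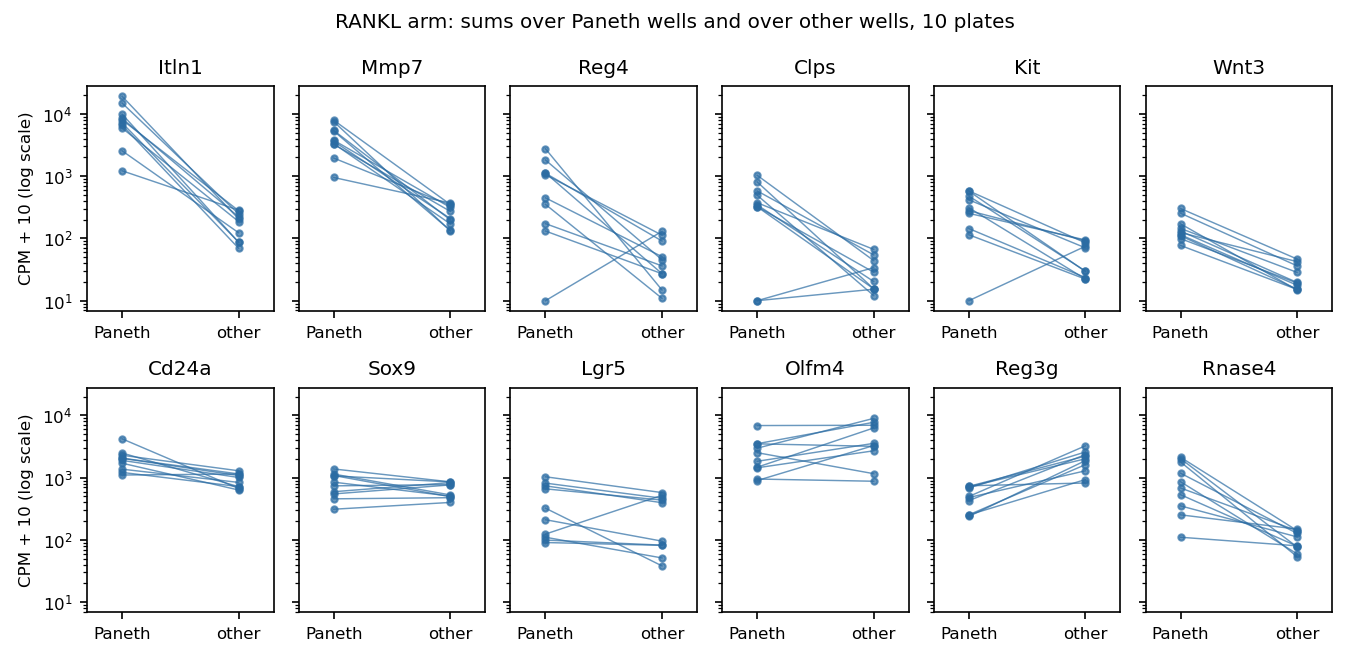
Level of 12 genes, as CPM plus 10 on a log axis, in the Paneth wells (left) and all other wells (right) of the same plate, RANKL alone. Each line joins the 2 sums of 1 of 10 plates. Itln1, Mmp7, Wnt3 and Rnase4 are higher in Paneth wells on all 10 plates, Reg3g lower on all 10, and the lines of Sox9 and Lgr5 cross.

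Other antimicrobial genes of the Reg family fell. Reg3g, a lectin active against Gram-positive bacteria and made widely by enterocytes, lay at 0, 203 and 2178 CPM in Paneth wells with CSRM617, against 717, 1553 and 4492 (log2 fold change -2.15 ± 0.39), and stood at -3.07 without day 2 replicate 2. With RANKL alone it lay at 228, 479 and 732 CPM, against 812, 1935 and 3240 (-1.91 ± 0.25, edgeR adjusted p = 2.79e-12), and the ranges did not overlap. Reg3b lay at 0, 0 and 404 CPM with RANKL alone, against 20.5, 157 and 1499 (-2.27 ± 0.47, edgeR adjusted p = 0.000148), and Reg1 at 0, 125 and 269 CPM, against 80.3, 688 and 2539 (-2.44 ± 0.36). Of 7 tested genes on the list of other antimicrobial genes, 2 rose (Itln1 and Reg4) and 3 fell (Reg1, Reg3b and Reg3g), with a median of -0.67. With CSRM617, Itln1 and Reg4 rose and Reg3g fell among 5 tested, with a median of 0.54. Antimicrobial genes did not move as 1 group.

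Of the niche signals, 4 could be tested with RANKL alone, of which Wnt3 rose and Areg fell, with a median of -0.06. Wnt3, the Wnt ligand that Paneth cells make for stem cells in mouse crypts, lay at 67.1, 118 and 293 CPM, against 4.88, 9.43 and 36.7 (log2 fold change 3.27 ± 0.45, edgeR adjusted p = 5.51e-08), with no overlap. Dll1 had a log2 fold change of 0.81 and did not pass (edgeR adjusted p = 0.409). No niche gene had counts enough for a test with CSRM617.

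Transcription factors of the secretory lineage went up in part. With RANKL alone, 3 of 9 tested rose and none fell, with a median of 0.76. Creb3l1, a factor of secretory cells tethered to the endoplasmic reticulum, lay at 0, 222 and 404 CPM, against 6.98, 19.9 and 43.5 (log2 fold change 3.56 ± 0.39, edgeR adjusted p = 5.37e-15). Foxa3, a forkhead factor, lay at 0, 155 and 608 CPM, against 13.2, 33.5 and 45.4 (2.54 ± 0.42, edgeR adjusted p = 2.08e-07). Klf4, a factor of goblet cell maturation, had a log2 fold change of 2.42 ± 0.47 (edgeR adjusted p = 0.000143), which was 1.73 (adjusted p = 0.108) without RANKL day 5 replicate 3. Sox9, needed for Paneth cells in mouse, lay at 302, 783 and 1371 CPM, against 390, 637 and 848, and did not pass (0.37 ± 0.23, edgeR adjusted p = 0.479). With TMM per plate sum the direction of Sox9 was negative, at -0.17. With CSRM617, 1 of 3 tested factors rose, with a median of 1.00, and Sox9 stood at 1.00 ± 0.35 (edgeR adjusted p = 0.0506). Sox9 passed there in 3 repeats with other processing or a plate left out. The factor that rose, Xbp1, drives expansion of the endoplasmic reticulum and lay at 344, 603 and 835 CPM, against 166, 256 and 334 (1.28 ± 0.40, edgeR adjusted p = 0.0216), with no overlap. That call was lost without day 0 replicate 2, day 1 replicate 1, day 5 replicate 1 or day 6 replicate 1. With RANKL alone Xbp1 had a log2 fold change of 0.76 and did not pass (edgeR adjusted p = 0.306).

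A part of the secretory pathway and endoplasmic reticulum (ER) genes rose in both treatments. With CSRM617, 6 of 16 tested rose and none fell (median 0.98), and with RANKL alone 6 of 23 rose and none fell (median 0.58). Goblet wells held these genes too. Their median summed share with CSRM617 was 1.25% in Paneth wells, 1.31% in goblet wells and 0.581% in wells of neither class. With RANKL alone it was 0.919%, 0.753% and 0.509%. Against the goblet wells with RANKL alone, none of 7 tested rose and 1, Agr2, fell. Agr2, a disulfide isomerase of secretory cells, lay at 676, 1335 and 3023 CPM in Paneth wells with CSRM617, against 39.0, 86.9 and 323 (log2 fold change 3.83 ± 0.36), and at 0, 606 and 1046 CPM with RANKL alone, against 39.9, 66.6 and 171 (2.96 ± 0.30, edgeR adjusted p = 1.55e-20). Pdia6, a protein-folding isomerase, lay at 668, 1113 and 2418 CPM with CSRM617, against 243, 385 and 459 (1.81 ± 0.34), and at 365, 749.8 and 1213 CPM with RANKL alone, against 264, 342 and 462 (1.12 ± 0.24, edgeR adjusted p = 0.000366). Pdia6 was higher in Paneth wells on every plate of both treatments. Qsox1 and Txndc5 are outside the list. Qsox1, a sulfhydryl oxidase, lay at 167, 344 and 676 CPM with CSRM617, against 12.4, 25.9 and 31.1 (4.04 ± 0.47, edgeR adjusted p = 5.09e-16), and Txndc5, a thioredoxin-domain protein of the ER, at 214, 835 and 2210 CPM, against 85.4, 110 and 142 (2.81 ± 0.42). Neither range overlapped. The ER-associated degradation gene Herpud1 and the chaperone gene Dnajc3 rose less with RANKL alone, by log2 fold changes of 1.69 ± 0.46 (edgeR adjusted p = 0.0112) and 1.10 ± 0.35 (edgeR adjusted p = 0.0445). The call on Herpud1 was lost without day 1 replicate 2 or 3, and that on Dnajc3 without any of 6 of the 10 plates.

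Goblet genes outside the definition rose too, 4 of 5 tested with CSRM617 (median 2.29) and 6 of 8 with RANKL alone (median 1.88), with none lower in either. Hepacam2, a surface protein gene, rose by a log2 fold change of 2.42 ± 0.46 with CSRM617 and 2.40 ± 0.36 with RANKL alone. Guca2a, which encodes guanylin, rose by 2.29 ± 0.44 with CSRM617, on 5 of 7 plates. Galnt12, a transferase of mucin-type O-glycosylation, rose by 1.94 ± 0.43 with RANKL alone. Galnt7, a related transferase outside the list, rose by a log2 fold change of 3.34 ± 0.42 with CSRM617 and 3.08 ± 0.31 with RANKL alone, where it lay at 209, 381 and 1294 CPM, against 37.9, 52.7 and 134. Rnase4, a secreted ribonuclease gene also outside the list, lay at 101, 762 and 2119 CPM with RANKL alone, against 44.0, 86.2 and 139 (3.50 ± 0.26, edgeR adjusted p = 3.9e-37). It overlaps Ang in the annotation, and 10.0% of its 31-base words occur in other genes. The chemokine gene Ccl9, on both the goblet and the M cell list, lay at 0, 168 and 809 CPM, against 5.97, 81.2 and 176 (1.75 ± 0.38, edgeR adjusted p = 0.000352), and stood at 1.23 (adjusted p = 0.112) without day 1 replicate 3.

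Part of the enterocyte genes was lower in the plate sums of Paneth wells. With CSRM617, 3 of 6 tested fell and with RANKL alone 8 of 10, with medians of -1.65 and -2.64 and none higher. Typical wells differed less. The median summed share with CSRM617 was 0.0428% in Paneth wells, 0.0473% in goblet wells and 0.0937% in wells of neither class. The means were 0.0713%, 0.163% and 0.488%. With RANKL alone the medians were 0.0619%, 0.0677% and 0.0818%, and the means 0.0838%, 0.131% and 0.458%. Alpi, intestinal alkaline phosphatase, had no UMI in Paneth wells with RANKL alone, against 33.2, 194 and 414 CPM, which makes it at least 8.73-fold lower (floor of 3 counts over the group, edgeR adjusted p = 1.12e-07). Apoa1, an apolipoprotein gene, lay at 0, 0 and 228 CPM, against 104, 389 and 576 (-3.42 ± 0.54, edgeR adjusted p = 7.09e-08), on 4 UMIs. The disaccharidase gene Sis fell by 2.02 ± 0.54 on the log2 scale with CSRM617.

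**Figure D4:**
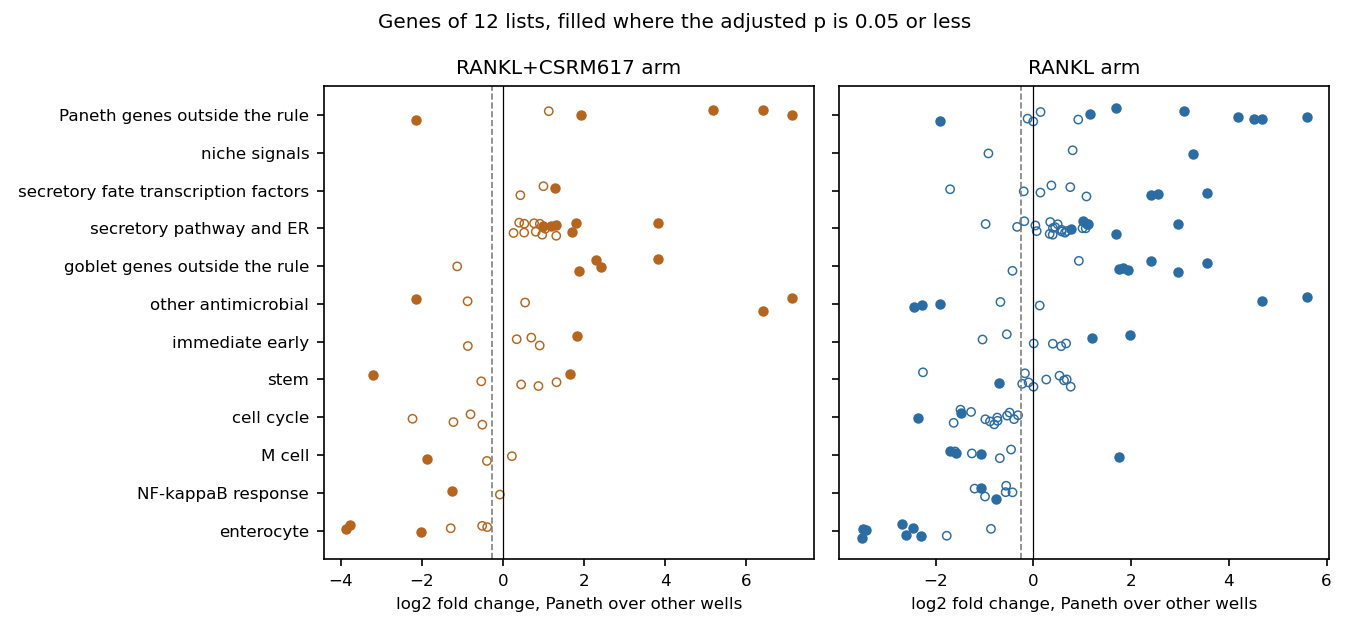
Log2 fold change, Paneth wells over all other wells of the same plates, for the tested genes of 12 lists in each treatment. Each point is a gene, filled where its adjusted p is 0.05 or less, and the dashed line is the median of all tested genes (-0.27 with RANKL+CSRM617, -0.24 with RANKL alone). Genes with no UMI in Paneth wells are left out. Paneth, goblet and ER genes lie mostly to the positive side and enterocyte genes to the negative side.

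A part of the RANK and M cell genes was lower in Paneth wells. Of 3 tested genes on the list of RANK and the inhibitor's target with RANKL alone, 1 fell (median -1.66), and with CSRM617 the 1 tested stood at 0.09. Tnfrsf11a, which encodes the RANK receptor, lay at 0, 40.4 and 269 CPM with RANKL alone, against 129.7, 233 and 262 (log2 fold change -1.66 ± 0.49, edgeR adjusted p = 0.0289), a call lost without any of 6 of the 10 plates. It had a UMI in 19.2% of Paneth wells, 19.8% of goblet wells and 51.1% of wells of neither class, or 6.28% of Paneth wells and 16.3% of wells of neither class when thinned. Of 8 tested M cell genes with RANKL alone, 3 fell and 1, Ccl9, rose (median -1.16). The median summed share of that list was 0.117% in Paneth wells, 0.0873% in goblet wells and 0.115% in wells of neither class. The means were 0.146%, 0.127% and 0.235%. Serpinb1a, a protease inhibitor gene, lay at 0, 97.6 and 2211 CPM, against 134, 975 and 1978 (-1.70 ± 0.30, edgeR adjusted p = 1.47e-06), Anxa5, an annexin gene, at 0, 134 and 418 CPM, against 83.6, 352 and 1201 (-1.59 ± 0.36), and Ccl20, the chemokine that calls CCR6-positive lymphocytes, at 0, 314 and 1307 CPM, against 71.7, 815 and 1444 (-1.06 ± 0.28, edgeR adjusted p = 0.008). All of these ranges overlapped, and the Ccl20 call was lost without day 1 replicate 1. Spib, the M cell transcription factor, had 7 UMIs and did not pass (-1.26 ± 0.57, edgeR adjusted p = 0.259), though it passed in 2 repeats with other processing or a plate left out. Of 7 tested NF-kappaB response genes (median -0.77), 2 fell, Ccl20 and the inhibitor gene Nfkbia (-0.77 ± 0.24, edgeR adjusted p = 0.0387), the second in a call lost without any of 6 of the 10 plates. With CSRM617, 1 of 3 tested M cell genes and 1 of 2 NF-kappaB response genes fell, with medians of -0.40 and -0.67. The M cell list there had median summed shares of 0.0856% in Paneth wells, 0.0840% in goblet wells and 0.179% in wells of neither class. Serpinb1a fell by 1.87 ± 0.46 and Nfkbia by 1.27 ± 0.43 (edgeR adjusted p = 0.0389), and without day 2 replicate 2 they stood at -2.82 and -2.27. That Nfkbia call was lost without day 1 replicate 1, day 1 replicate 2 or day 5 replicate 1. Onecut2, the gene of the inhibitor's target, lay at 269, 539 and 799.6 CPM with RANKL alone, against 527, 664 and 1038, and did not pass (-0.42 ± 0.25, edgeR adjusted p = 0.462). It passed in 1 repeat with other processing or a plate left out.

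Stem cell genes were present in Paneth wells. With RANKL alone 1 of 11 tested, Olfm4, was lower and none higher, with a median of 0.00, and with CSRM617 1 of 6 was higher and 1 lower, with a median of 0.66. Lgr5 had a UMI in 48.1% of Paneth wells and 54.5% of wells of neither class, or 28.2% and 26.2% when thinned, and its log2 fold change of 0.68 ± 0.32 did not pass (edgeR adjusted p = 0.298). With CSRM617 Lgr5 lay at 0, 214 and 1005 CPM, against 0, 118 and 224 (1.65 ± 0.55, edgeR adjusted p = 0.0338), higher on 4 of 7 plates, a call lost without day 5 replicate 1 or day 6 replicate 1. Olfm4, a secreted glycoprotein of crypt-base cells, lay at 0, 0 and 516 CPM in Paneth wells with CSRM617, against 186, 1172 and 6378 (-3.21 ± 0.46, edgeR adjusted p = 4.82e-10), and at -4.79 without day 2 replicate 2. With RANKL alone it lay at 889.8, 2168 and 6870 CPM, against 867, 3411 and 8961 (-0.70 ± 0.19, edgeR adjusted p = 0.0108), and this call was lost without day 1 replicate 3, day 5 replicate 1 or day 8 replicate 1. The RANKL level rested in large part on wells near the threshold. The 10 Paneth wells with RANKL alone under 0.6% held 176 of the 322 Olfm4 UMIs, and the 42 at 0.6% or more held 146, or 4834 and 1260 CPM, with a median of 10 and 2 UMIs per well. With CSRM617 the 2 wells under 0.6% held 1 Olfm4 UMI and the other 30 held 14. Kept to wells at 0.6% or more, the log2 fold change with RANKL alone was -1.72, and the call with RANKL alone was lost with the DESeq2 test (adjusted p = 0.190), with 5 or more Paneth wells per plate (0.978) and at 2000 UMIs (0.971). Cell-cycle genes with RANKL alone had a median of -0.84, with 2 of 14 lower, Ube2c (-1.48 ± 0.39) and Ccna2, and with CSRM617 none of 4 passed, with a median of -1.01. The Ube2c call was lost without day 1 replicate 1. Ccna2 rested on 3 UMIs in Paneth wells, a ratio of 0.194 to the other wells (95% counting interval 0.04 to 0.568), and its call was lost without day 1 replicate 1 or 3 or day 5 replicate 3. Of the immediate early genes, 1 of 5 tested rose with CSRM617 (median 0.70) and 2 of 8 with RANKL alone (median 0.49), among them the antiproliferative Btg2 in both (1.83 and 1.98). The Btg2 call with CSRM617 was lost without day 1 replicate 1. No gene of the defensin, enteroendocrine or tuft lists had counts enough for a test. Mki67, a proliferation marker, had a UMI in 25% of Paneth wells and 38.4% of wells of neither class, or 10.7% and 17.6% when thinned.

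Paneth wells were also set against the goblet wells of the same 10 RANKL plates. With 225 genes testable, 1 was higher (0.444%) and 2 were lower (0.889%) in Paneth wells, 1.33% in all, and 25 had an unadjusted p under 0.05. Lgals4, which encodes galectin-4, lay at 310, 804 and 1393 CPM in Paneth wells, against 1653, 1962 and 2919 in goblet wells (log2 fold change -1.28 ± 0.21, edgeR adjusted p = 0.00134), with no overlap. Agr2 lay at 0, 621 and 1109 CPM, against 295, 1102 and 4045 (-1.23 ± 0.31, edgeR adjusted p = 0.0321), and Olfm4 at 905, 2022 and 7912 CPM, against 174, 1083 and 2280 (1.33 ± 0.31, edgeR adjusted p = 0.0203), higher on 9 of 10 plates. The Agr2 call was lost without day 1 replicate 2 or 3 or day 5 replicate 1 or 2, and the Olfm4 call without day 1 replicate 2, day 5 replicate 2 or day 6 replicate 2. None of the 3 calls was kept among Paneth wells with a share of 0.6% or more, where Lgals4 stood at -0.98 (edgeR adjusted p = 0.167), Agr2 at -1.37 (0.099) and Olfm4 at 0.37 (0.786), and the Lgals4 call was also lost with 5 or more Paneth wells per plate (0.269) and the Olfm4 call with no filter on low counts (0.274).

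In the main fit, the leading Paneth genes did not separate the 2 secretory classes past the test. Itln1 lay at 1396, 7879.6 and 19588 CPM in Paneth wells, against 534, 3826 and 10252 in goblet wells (log2 fold change 1.26 ± 0.46, edgeR adjusted p = 0.179). Mmp7 lay at 1086, 3577 and 8082 CPM, against 1068, 2069 and 3444 (0.97 ± 0.33, edgeR adjusted p = 0.14), and Reg4 at 0, 707 and 2798 CPM, against 29.9, 451 and 2120 (0.48 ± 0.53, edgeR adjusted p = 0.855). Cd24a stood at 0.54 ± 0.19 (edgeR adjusted p = 0.177). These non-calls depended on the setting. Among repeats with other processing or a plate left out, Itln1 and Mmp7 each passed in 3 and not in the rest. Cd24a passed in 1, and with no filter on low counts Cd24a and Reg4 turned to -0.11 and -0.12. A p that misses the threshold does not show that the levels are equal, and the median of all 225 genes was 0.02.

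Whether Paneth wells changed over the course was tested between the 5 RANKL plates of days 4 to 9 (day 5 replicates 1, 2 and 3, day 6 replicate 2, day 8 replicate 1) and the 5 of days 1 to 3 (day 1 replicates 1, 2 and 3, day 2 replicates 1 and 2). Of 59 genes with enough counts, 0 were higher and 1 was lower (1.69%) by edgeR's quasi-likelihood test, with 7 at an unadjusted p under 0.05. That gene was Reg4. It lay at 326, 0, 158, 137 and 506 CPM on the plates of days 4 to 9, against 1166, 1738, 2479, 955 and 1145 CPM on those of days 1 to 3, with 9 and 107 UMIs (log2 fold change -2.72 ± 0.49, edgeR adjusted p = 0.00391). The plates did not overlap. In the other wells of these plates Reg4 lay at 0.901, 115, 25.1, 16 and 38.7 CPM on days 4 to 9, against 17.4, 36.1, 5.04, 80.0 and 104 CPM on days 1 to 3, with overlap and a log2 difference of means of -0.30. The Reg4 call was lost without day 5 replicate 3 (adjusted p = 0.0785) and at a Paneth share of 0.6% (-2.17, adjusted p = 0.225), and without day 1 replicate 1 or 2 no gene passed.

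Whether a change between spans differed between Paneth wells and the other wells of the same plates was fitted over both. There, 1 of 6838 genes passed (0.0146%), and it was Reg4, whose log2 change between spans in Paneth wells minus that in the other wells was -2.88 ± 0.61 (edgeR adjusted p = 0.0158). The call was lost without day 1 replicate 1, 2 or 3, day 5 replicate 2 or day 5 replicate 3, with -1.88 as the value nearest 0, without day 5 replicate 2. It was also lost with the DESeq2 test and at a Paneth share of 0.6%. Whether Reg4 changed between the spans in goblet wells alone was not tested. On simulated data with changes only in the more highly expressed genes, the fit over both kinds of wells recovered 3% of genes changed by 1.5. It recovered 52% of those changed by 3 on the log2 scale. Genes that did not pass here may therefore still have changed differently in the 2 kinds of wells. Kit stood at -2.23 ± 0.61 and did not pass (edgeR adjusted p = 0.285). Other genes moved in both kinds of wells or not past the test. Itln1 lay at 9450, 1430, 6411, 2882 and 8268 CPM in Paneth wells of days 4 to 9, against 8392, 14356, 17352, 5123 and 9274 CPM of days 1 to 3 (-0.93 ± 0.48, edgeR adjusted p = 0.419), beside -0.94 in the other wells. Olfm4 lay at 2824, 8104, 3403, 2059 and 1687 CPM on days 4 to 9, against 1492, 3348, 802, 2171 and 1030 CPM on days 1 to 3 (1.00 ± 0.46, edgeR adjusted p = 0.419), beside 1.50 in the other wells. Both sets of plates overlapped. The values of the other wells are log2 differences of means, on which Paneth wells stood at -0.94 for Itln1 and 1.03 for Olfm4.

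The genes of the definition, given without a test, did not follow Reg4. Lyz1 lay at 4128, 4290, 19550, 4667 and 23960 CPM in Paneth wells of days 4 to 9, against 7506, 8305, 21945, 2258 and 1832 CPM of days 1 to 3. Defa24 lay at 18466, 1112, 5066, 5490 and 11474 CPM, against 4616, 4957, 1896, 7554 and 6183 CPM. Ang4 lay at 4345, 636, 237, 1373 and 506 CPM, against 1119, 1352, 0, 434 and 2633 CPM. All of them overlapped between the spans. No fit of days 4 to 9 against day 0 could be made, since no day 0 plate with RANKL alone held 3 Paneth wells.

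Paneth wells of the 2 treatments were compared on days with plates of both, between 5 CSRM617 plates (day 1 replicates 1 and 2, day 2 replicate 2, day 5 replicate 1, day 6 replicate 1) and 9 RANKL plates of the same days, with day as a covariate. Of 81 genes with enough counts, 5 were higher (6.17%) and 8 lower (9.88%) with CSRM617, 16% in all. Only 2 of these 13 calls were kept at a Paneth share of 0.6%, Gm10800 and Olfm4. Gm10800, Itln1, Reg4, Agr2 and Serp1 were higher, and Olfm4, Rps3, Clca3b, Hnrnpa2b1, Slc12a2, Npm1, Actb and Ptma lower.

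Of the granule and secretory genes, Itln1 lay at 25987, 4712, 24245, 70975 and 87088 CPM with CSRM617, against 1530, 8071 and 19486 CPM (lowest, median and highest) with RANKL alone (log2 fold change 2.23 ± 0.70, edgeR adjusted p = 0.0346). Reg4 lay at 1860.5, 2728, 1597, 4017 and 3555 CPM, against 0, 948 and 2784 CPM (1.73 ± 0.58, edgeR adjusted p = 0.0446). Agr2 lay at 600, 2480, 1656, 1339 and 2844 CPM, against 0, 659 and 1194 CPM (1.37 ± 0.44, edgeR adjusted p = 0.0397). All 3 overlapped between the treatments, and the calls were lost without any of 8 of 14 plates for Itln1, 10 of 14 for Reg4 and 9 of 12 that could be left out for Agr2. Without the CSRM617 day 5 replicate 1 plate Itln1 stood at 1.51 and Reg4 at 0.84. Serp1, which stabilises membrane proteins in the ER, lay at 1200, 1240, 1301, 1339 and 2488 CPM, against 170, 586 and 901 CPM (1.20 ± 0.29, edgeR adjusted p = 0.0112), with no overlap, a call lost without that same day 5 plate. Mmp7 lay at 6062, 5208, 4080, 20891 and 18840 CPM, against 1190, 3702 and 7694 CPM, and did not pass (1.21 ± 0.49, edgeR adjusted p = 0.0987), though it passed in 2 repeats with other processing or a plate left out. In the other wells of the same plates the log2 difference of means was 0.21 for Itln1, -1.03 for Reg4, 0.73 for Agr2, 0.72 for Serp1 and 0.24 for Mmp7. On this measure, without day, Paneth wells stood at 2.31, 1.55, 1.58, 1.41 and 1.40 for the same genes. Serp1 in the other wells did not overlap between the treatments either, at 450, 513 and 536 CPM with CSRM617, against 163, 322 and 445 CPM with RANKL alone.

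Olfm4 was lower with CSRM617. It lay at 300, 0, 532, 134 and 0 CPM in Paneth wells with CSRM617, against 901, 2155 and 8668 CPM with RANKL alone (log2 fold change -2.96 ± 0.60, edgeR adjusted p = 0.00532). The plates did not overlap, and the call held without any 1 plate. In the other wells the log2 difference of means, without day, was -0.50, against -3.90 in Paneth wells on the same measure. The difference between Paneth and other wells was not tested across treatments.

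Some differences had the same sign in the other wells of the same plates. Log2 fold changes here come from the fit with day, while the values of other wells beside them are log2 differences of mean CPM without day. On that second measure Paneth wells stood at -2.79 for Rps3, -2.06 for Hnrnpa2b1, -1.43 for Slc12a2, -1.01 for Actb and 4.04 for Gm10800. Rps3, a ribosomal protein gene, lay at 0, 177 and 360 CPM (lowest, median and highest) with CSRM617, against 510, 1186 and 1586 with RANKL alone (log2 fold change -2.47 ± 0.50, edgeR adjusted p = 0.00532), beside -1.83 in the other wells. Hnrnpa2b1, an RNA-binding protein gene, lay at 0, 473 and 536 CPM, against 790, 1207 and 1791 (-1.68 ± 0.41, edgeR adjusted p = 0.0121), beside -1.24, and Slc12a2, an ion cotransporter gene of crypt cells, at 711, 1071 and 1736 CPM, against 1551, 2635 and 5269 (-1.31 ± 0.29, edgeR adjusted p = 0.0059), beside -0.78. Actb fell by 1.02 ± 0.28 (edgeR adjusted p = 0.0211), beside -0.91. The Slc12a2 call was lost without CSRM617 day 5 replicate 1 (adjusted p = 0.0917), and the Actb call without that plate, CSRM617 day 6 replicate 1, or RANKL day 1 replicate 1, day 5 replicate 1 or day 6 replicate 2 (up to 0.164). Gm10800, a predicted gene of which 42.0% of 31-base words occur in 11 other genes, lay at 5401, 1240, 20993, 16070 and 19550 CPM, against 135, 716 and 1712 CPM (3.92 ± 0.43, edgeR adjusted p = 1.19e-05), beside a difference of 2.44 in the other wells. The rest, Clca3b (-1.74 ± 0.54), Npm1 (-1.23 ± 0.36) and Ptma (-0.97 ± 0.30), had edgeR adjusted p-values of 0.0346, 0.0315 and 0.0346, calls lost without any of 7, 9 and 10 plates. Their log2 differences of means were -2.22, -1.38 and -0.93 in Paneth wells beside -0.16, -0.16 and -0.17 in the other wells, and this contrast was not tested. Paneth wells with CSRM617 also held fewer UMIs, a median of 1891 against 2241 with RANKL alone, and a larger share in the 5 goblet genes, a median of 1.08% against 0.546%, and the part of either in these differences was not tested. The part of the plate batch in all of these was not tested.

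**Figure D5:**
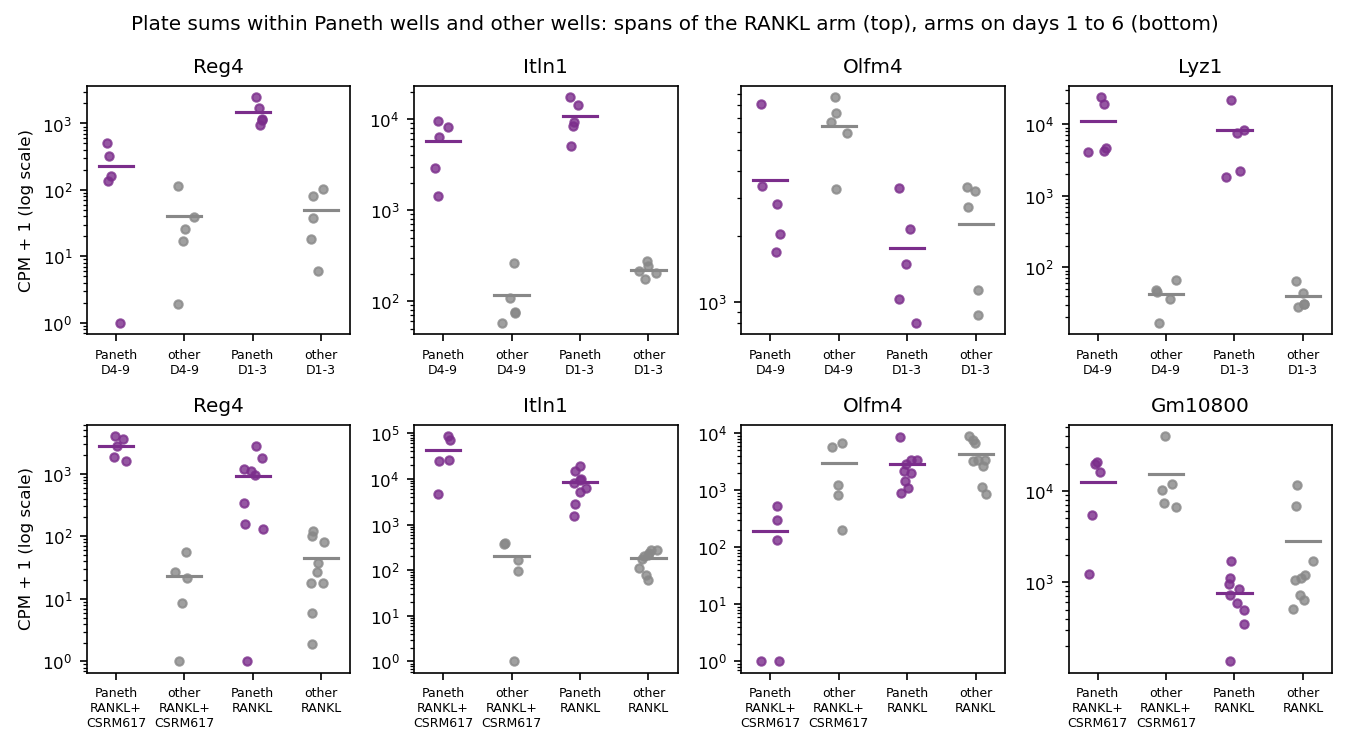
Level of single genes as CPM plus 1 on a log axis, each point 1 plate and each bar a mean. The top row sets days 4 to 9 left of days 1 to 3 with RANKL alone, for Paneth wells (purple) and other wells (grey), and the bottom row sets RANKL+CSRM617 left of RANKL alone. Reg4 in Paneth wells lies at 0 to 506 CPM on days 4 to 9 and at 955 to 2479 CPM on days 1 to 3, and Olfm4 at 0 to 532 CPM with CSRM617 and 901 to 8668 CPM with RANKL alone.

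Of the genes of the definition, again without a test, Lyz1, Defa24 and Ang4 were also high on the CSRM617 plates of days 5 and 6. Lyz1 lay at 22686, 13641, 14133, 65619 and 49765 CPM with CSRM617, against 1911, 4589 and 24645 CPM with RANKL alone. Defa24 lay at 4741, 1736, 11709, 72047 and 30214 CPM, against 1190, 5077 and 19143 CPM, and Ang4 at 2041, 3720, 2070, 22632 and 32702 CPM, against 0, 1076 and 4504 CPM. The last 2 values of these 3 genes, from day 5 replicate 1 and day 6 replicate 1, were above every RANKL plate. Mptx2 differed from them, at 60.02, 0, 1478, 8571 and 1777 CPM with CSRM617, against 0, 132 and 3224 CPM with RANKL alone, with only day 5 replicate 1 above every RANKL plate.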

How the data were processed

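The deposited files used were 2 tables of UMI counts, genes by wells, with no normalisation by the authors. The submitters' processing notes name kallisto, bustools, Seurat 3.1.5 and the build GRCm38, with no roles. The deposited natural log tables were not used. The tables held 6636 wells and 21099 genes (RANKL) and 1903 wells and 9257 genes (RANKL+CSRM617), with 9230 genes in both, 96.9% of the RANKL UMIs. No 2 wells held identical counts.

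Wells with 1000 or more UMIs were kept. Group and replicate came from the labels. Shares of wells were compared over plates by two-sided permutation tests. UMIs were summed per plate and class and tested with edgeR 4.0.16 in R 4.3.3 (quasi-likelihood, filterByExpr, Benjamini-Hochberg over all tested genes), on full library sizes with TMM factors taken from sums pooled over plates, over genes with 10 or more pooled UMIs. That scaling was chosen after tests on simulated data, in which it gave 4 false calls among 5541 unchanged genes. There 62% of genes changed by 1.5 and 90% of those changed by 3 on the log2 scale were recovered for Paneth against other wells with RANKL alone. The simulated sums had 1 base profile for both classes, a spread between plates (dispersion) of 0.05, and changes only in the more highly expressed genes. These rates therefore need not hold for sparser genes or for the measured sums. Alternatives were DESeq2 1.42.0, other scalings and filters, other definitions and leaving out each plate. Named were the 12 largest rises and 12 largest falls past an adjusted p of 0.05 among genes averaging at least 5 log2 CPM, up to 4 called members of each of 16 lists, and genes of prior interest, and of these the text gives a part. A gene that the rule named is not reported here. Members and lists were chosen with earlier results of these data known. Positions come from the GRCm38 annotation and promoters from RefSeq. Plates with the same number did not deviate together, so they were not paired.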

Additional observations from a re-analysis of the deposited data

Results flagged for a closer look

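In 10 of 71 groups of 4 to 10 plates looked at, 1 plate stood far from the others by a gap test for outliers. That test assumes normal values, and the groups share libraries, so this count is not set against a chance rate. Olfm4 in the Paneth wells of RANKL day 5 replicate 2 was the highest of its group in every comparison it entered. It stood at 6870 CPM there, with the next plate at 3504, in the comparison with other wells, at 7912 CPM (next 3583) in that with goblet wells, at 8104 CPM (next 3403) among the plates of days 4 to 9, and at 8668 CPM (next 3411) among the 9 RANKL plates set against CSRM617. These are 1 library under 4 scalings.

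RANKL day 5 replicate 1 stood out for 2 genes of the definition, with Defa24 at 19420 CPM (next 9953) and Ang4 at 4569 CPM (next 2406) in its Paneth wells. In the other wells, Defa24 was highest on RANKL day 5 replicate 2, at 81.7 CPM (next 43.5). Cd24a in Paneth wells of RANKL day 1 replicate 3 stood at 4206 CPM (next 2484). With CSRM617, Cd24a in the other wells of day 5 replicate 1 stood at 1639 CPM (next 923), and Serp1 in the Paneth wells of day 6 replicate 1 at 2488 CPM (next 1339).

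The change of Reg4 between days 4 to 9 and days 1 to 3 differed between Paneth wells and all other wells together, by -2.88 on the log2 scale in a test of the difference itself, a call lost without any of 5 of the 10 plates, with the DESeq2 test and at a Paneth share of 0.6%. Goblet wells alone were not compared between these spans.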

How the results depend on the processing

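Of repeats on single genes, the call and direction were kept in 720 of 814 for Paneth against other wells with RANKL alone, 393 of 445 with CSRM617, 104 of 125 against goblet wells, 43 of 45 between spans, 27 of 34 for the difference between classes and 185 of 278 between treatments. Reversed were Sox9 at -0.17 (RANKL, TMM per plate sum), and Cd24a at -0.11 and Reg4 at -0.12 (against goblet wells, no filter). Depth limits all counts, since a plate's Paneth sum held 3340 to 21432 UMIs.

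The definition picked 34 wells with RANKL alone and 14 with CSRM617 at 2000 UMIs, 42 and 30 at 0.6%, 32 and 18 without Lyz1, and 60 and 32 after thinning to 1000 UMIs, of which 47 and 30 were among the original wells. The share difference of CSRM617 days 1 to 3 from day 0 was 0.0689 without Lyz1, the other sign from that reported.

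Counts of genes moved as follows, higher then lower. RANKL Paneth against other wells gave 38 and 900 with TMM per plate sum, 13 and 28 with 5 or more Paneth wells, 20 and 20 at 2000 UMIs, and lower counts of 48 with the DESeq2 test, 71 with no filter and 59 at 0.6%. Against goblet wells these were 7 and 5 with the DESeq2 test, 0 and 65 with no filter, 2 and 4 with 5 or more wells, 2 and 0 at 0.6%, and 4 and 4 at 2000 UMIs. CSRM617 gave 27 and 17 with 5 or more wells, 16 and 3 at 2000 UMIs, a higher count of 98 with no filter, and lower counts of 147 with DESeq2 size factors, 101 with the DESeq2 test, 102 with TMM per plate sum and 109 with day in place of plate. Between spans the lower count was 3 with no filter and 0 at 0.6%, and for the difference between classes 0 with the DESeq2 test and 0 at 0.6%. Between treatments the counts were 1 and 2 at 0.6%, 2 and 3 at 2000 UMIs, with 3 higher by DESeq2 size factors and 17 lower with no filter. The causes were not tested.

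Leaving out 1 plate at a time, the counts ranged from 48 to 74 higher and 74 to 118 lower for RANKL, 31 to 47 and 34 to 86 for CSRM617, 0 to 1 and 1 to 3 against goblet wells, 0 to 2 and 0 to 2 between spans, 0 to 1 and 0 to 2 for the difference between classes, and 1 to 6 and 3 to 10 between treatments. The lowest counts of RANKL lower genes and of both CSRM617 counts came without day 1 replicate 3 and without day 1 replicate 1. Share differences ranged from -0.0536 (without CSRM617 day 6 replicate 1) to 1.08 for days 4 to 6 against 1 to 3 with CSRM617, from -1.01 to -0.278 for its days 1 to 3 against 0, from 0.878 to 1.19, 0.369 to 0.588 and -0.749 to -0.436 for the RANKL spans in the order reported, and from 1.53 to 2.26 and 0.356 to 1.17 between treatments.

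With the replicate number as a block, share permutation p-values lay between 0.0432 and 0.625, and the gene counts were 0 and 1 between spans, 0 and 1 for the difference between classes, and 2 and 8 between treatments, where Itln1, Reg4 and Agr2 lost their calls. Same-numbered plates correlated at -0.283 to 0.274 with CSRM617, with 4 of 42 pairs over 0.1, and at -0.278 to 0.207 with RANKL alone, with 19 of 135, so the numbers do not pair them. Not run were 5 or more wells and 2000 UMIs for the spans and the difference between classes, 5 or more wells between treatments, and days 4 to 9 against day 0.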
